A study of Mus musculus with 16 samples.

Results

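Among the RNAs of a cell, a handful of noncoding species with structural or catalytic roles take a large part of the mass. The RNAs described here were Rn45s, Malat1, Neat1, Rmrp, Rpph1 and Rn7sk, chosen by name as abundant structural noncoding RNAs. The deposited count table of the mouse hind limb skin series, with 14858 genes, was matched by symbol and gave values for 5 of the 6 RNAs. Rn7sk was not analysed here. Each of the 5 measured RNAs passed the filter on low counts in every comparison.

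The 16 libraries came from whole hind limb skin of female BALB/cAnNTac mice of about 10 to 16 weeks, 1 library per mouse, from the mission Rodent Research-8. The ESE group (exposure to space environment, n = 10) had flown for about 40 days according to the series' design text, which gives no time per arm, and held a responder ESE cohort with low global 5-methylcytosine (n = 4) and a non-responder ESE cohort with high 5-methylcytosine (n = 6). The ground controls (n = 6) had not flown. The cohorts were thus set by a measured value and not by a treatment. In the LAR arm (live animal return; 5 ESE and 3 ground control libraries) flown mice were euthanized after landing, and in the ISS arm (5 ESE and 3 ground control libraries) on orbit, after a shorter stay by the study's methods. Ground controls were named for 1 arm each. Arm, time in space and recovery on the ground thus cannot be told apart. The arm was taken from mouse names in the study's supplementary sample sheet. Total RNA was captured with exon baits before sequencing, so a level reflects both the RNA and how well it was captured, and levels of different genes were compared only within this assay. The protocol does not say whether each of the 5 RNAs had baits of its own.

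Rn45s is the unit for the precursor of the ribosomal RNAs, which RNA polymerase I transcribes in the nucleolus and which is then cut and modified into the ribosomal RNAs of both ribosome subunits. The counts of Rn45s do not separate the precursor from the ribosomal RNAs cut from it, so they do not measure the precursor alone. Rmrp is the RNA of RNase MRP, an enzyme that cuts this precursor, and Rpph1 is the RNA of RNase P, which trims the 5′ ends of transfer RNA precursors. These enzymes share most of their protein subunits, and RNA polymerase III makes both RNAs. Malat1, a nuclear RNA found at splicing speckles, and Neat1, the scaffold of paraspeckles, are made by RNA polymerase II, and RNase P cuts the 3′ end of Malat1 and of the long Neat1 transcript, which then ends in a triple helix in place of a poly(A) tail. In skin and other tissues these RNAs are expressed in nearly every cell, so none of them marks a skin cell type.

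The RNase P and RNase MRP RNAs are shown because the comparison of Rmrp with Rpph1 turns on telling these related RNAs apart. The sequences were read from GENCODE transcripts of GRCm38 (mm10), and capitals mark the longest runs that both RNAs hold, 9 bases each. Rmrp lies at chr4:43492785-43493059 and Rpph1 at chr14:50807447-50807771 in the count table, both on the minus strand and with 1 exon. The printed Rmrp is the whole transcript, chr4:43492788-43493058, and the printed Rpph1 is bases 1 to 300 of 319, chr14:50807468-50807767.
Rmrp: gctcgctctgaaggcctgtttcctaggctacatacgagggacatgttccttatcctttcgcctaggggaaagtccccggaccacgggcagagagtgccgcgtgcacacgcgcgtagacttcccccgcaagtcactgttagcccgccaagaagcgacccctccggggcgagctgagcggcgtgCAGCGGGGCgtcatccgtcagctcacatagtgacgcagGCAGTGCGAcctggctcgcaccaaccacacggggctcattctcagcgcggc
Rpph1: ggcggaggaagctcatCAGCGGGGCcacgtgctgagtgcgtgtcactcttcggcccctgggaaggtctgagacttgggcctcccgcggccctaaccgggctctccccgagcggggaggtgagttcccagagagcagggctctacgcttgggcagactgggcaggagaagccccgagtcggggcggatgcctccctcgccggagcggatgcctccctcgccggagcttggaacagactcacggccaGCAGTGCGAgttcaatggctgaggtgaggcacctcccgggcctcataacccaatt
An alignment of both transcripts gave 51.8% identity, and none of the 222 windows of 50 bases of Rmrp was found in Rpph1. The mouse genome also holds copies related to Rpph1. Rprl1, Rprl2 and Rprl3 had 71.2%, 75.5% and 75.8% identity with it, and the longest shared run was 37 bases, with Rprl3. Rprl2 had 53 to 135 counts per library and Rprl3 had 1228 to 3440, against 14094 to 99971 for Rpph1.

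The 3′ ends of Malat1 and Neat1 are shown because they carry the elements that RNase P processing leaves at the end of each RNA. Both genes lie on the minus strand of chromosome 19, Malat1 at chr19:5795690-5802671 and Neat1 at chr19:5824710-5845480, 22039 bases apart. The windows below are chr19:5795958-5796137 (bases 6536 to 6715 of Malat1) and chr19:5824708-5824827 (the last 120 bases of Neat1). Capitals mark the runs of 10 or more bases that both hold.
Malat1: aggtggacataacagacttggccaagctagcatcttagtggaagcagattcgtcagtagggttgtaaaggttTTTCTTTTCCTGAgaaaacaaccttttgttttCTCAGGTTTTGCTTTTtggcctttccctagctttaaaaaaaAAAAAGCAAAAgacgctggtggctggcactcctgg
Neat1: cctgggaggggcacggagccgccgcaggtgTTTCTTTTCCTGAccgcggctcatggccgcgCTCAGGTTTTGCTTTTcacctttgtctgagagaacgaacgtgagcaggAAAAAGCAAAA
The shared runs are TTTCTTTTCCTGA (13 bases), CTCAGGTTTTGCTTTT (16 bases) and AAAAAGCAAAA (11 bases), in the same order in both RNAs. The first and second belong to the U-rich elements and the last to the A-rich tract that form the triple helix. In Malat1 the last run ends at base 6691, so the printed Malat1 window runs past these elements. Neat1 has a short and a long transcript that start at the same place, and the counts do not separate them.

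Rn45s (chr17:39842997-39848829, plus strand) took the largest share of counts in 15 of 16 libraries and the second largest in the other, ground control replicate 6, where the muscle gene Ttn took 17.7%. Its mean share over all libraries was 30.7%, against 3.15% for Malat1, 1.11% for Rmrp, 0.391% for Rpph1 and 0.268% for Neat1. Malat1 was second in counts in 10 libraries and no lower than rank 4 in any of the 16. Together the 5 RNAs made up 16.8% to 56.9% of a library's counts, and the 4 RNAs other than Rn45s took 3.37% to 10.5% of the counts left without Rn45s. The 95% Wilson intervals of single shares were at most 0.048 percentage points to either side for Rn45s and narrower for the others, and cover counting error only.

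Per kilobase of annotated length, the median level was highest for Rn45s, followed by Rmrp, Rpph1, Malat1 and Neat1. Here and below, a level is in CPM over the counts other than Rn45s, scaled by TMM. The median was 69596 CPM per kb for Rn45s, 54559 for Rmrp, 16943 for Rpph1, 6249 for Malat1 and 175 for Neat1. Rn45s exceeded Rmrp in 14 of 16 libraries, with a median ratio of 1.21, so the first and second places in this order were not separated beyond the spread. Each later place was held in all 16 libraries, although the ranges of Rmrp and Rpph1 and those of Rpph1 and Malat1 overlapped across libraries. Neat1 and Malat1 did not overlap, and their ratio per kb was 20.1 to 82.2. The length used for Rn45s was 5833 bases, and only reads with a single mapping place were counted. The level per kb of Rn45s depends on both. The length used for Neat1 was 20771 bases, that of its long transcript. Its level per kb is thus understated where reads came from the short transcript, by an amount that the counts do not give. The summed counts of the 5 RNAs equalled 95.2% to 99.0% of the number of reads that the authors' mapping statistics assign to noncoding exons in reverse orientation. These totals were made separately from the gene counts, so this is a ratio and not a share of those reads. The sense orientation held 1.92% to 5.72% of noncoding exon reads.

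The share of Rn45s differed less between groups than between libraries of a group. In responder skin it was 29.9%, 36.1%, 31.6% and 12.9%. In non-responder skin the lowest share was 20.8%, the median 27.9% and the highest 51.9%, and in ground control skin the lowest was 14.7%, the median 34.4% and the highest 45.6%. All groups overlapped, and the lowest library of the responders lay below every ground control while the highest of the non-responders lay above every one. The mean was 29.4% ± 10.4 in the ESE group (SD, n = 10) and 32.9% ± 11.04 in the ground controls (SD, n = 6), a difference of -3.56 percentage points.

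Each comparison of the share was tested by an exact two-sided permutation test of the difference of means, with Benjamini-Hochberg adjustment over 5 comparisons. For the ESE group against the ground controls p was 0.526, and the adjusted p was 0.71 in each of the 5 exact tests. The responder mean was 27.6% ± 10.1 (SD, n = 4) and the non-responder mean 30.5% ± 11.3 (SD, n = 6). Responders differed from ground controls by -5.27 points (exact p = 0.476), non-responders from ground controls by -2.42 points (exact p = 0.71) and responders from non-responders by -2.85 points (exact p = 0.71). The LAR arm held 28.3% ± 10.95 and the ISS arm 33.1% ± 9.93 (SD, n = 8 each), a difference of -4.82 points (exact p = 0.373). Within the LAR arm the ESE libraries had 25.9% ± 8.08 (SD, n = 5) and the ground controls 32.3% ± 15.9 (SD, n = 3), and within the ISS arm the ESE libraries had 32.8% ± 12.1 (SD, n = 5) and the ground controls 33.6% ± 7.25 (SD, n = 3). No comparison passed the threshold of 0.05.

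**Figure D1:**
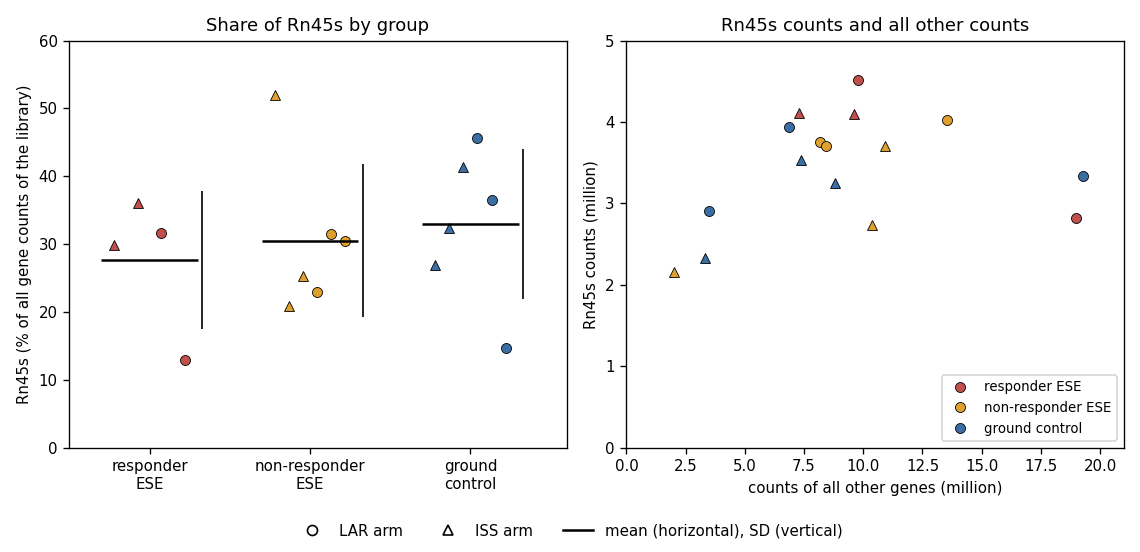
Left, the share of Rn45s in all gene counts (%) of each library by group, with circles for the LAR arm and triangles for the ISS arm, the mean as a horizontal line and the SD as a vertical line. Right, Rn45s counts against the counts of all other genes, both on linear axes: Rn45s counts lay between 2160067 and 4511011 while the other counts lay between 1999275 and 19262819, a range of 9.63-fold.

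The counts of Rn45s themselves were much closer to each other than its shares. They ran over a range of 2.09-fold, with 2160067 counts in non-responder replicate 1 as the lowest and 4511011 in responder replicate 3 as the highest. The counts of all other genes ran over a range of 9.63-fold. The share of Rn45s was highest where other counts were fewest, in non-responder replicate 1 (1999275 other counts, 51.9% Rn45s), and lowest in libraries with the most other counts, responder replicate 4 (18962076, 12.9%) and ground control replicate 6 (19262819, 14.7%). In ground control replicate 6 the summed level of 13 skeletal muscle markers was 82127 CPM, against at most 7166 CPM in any other library, and the part of muscle in its values was not tested. Without this library the difference in share was -7.20 points (ESE minus ground control). With each library left out in turn it ran over -7.20 to -1.03 points.

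Correlations of the Rn45s share with 4 library measures were computed over the 16 libraries, with permutation p-values from 100000 draws (exact enumeration under 10 libraries) and adjustment over the 4 measures. Against the counts of all other genes, r was -0.94 and rho -0.95. The other counts are part of the denominator of the share and varied far more than the Rn45s counts. This relation was thus largely fixed in advance and is given as a description, with no p. Its r was -0.94 within the ESE group (n = 10), -0.96 within the ground controls (n = 6) and -0.94 without the 2 libraries farthest from the median. Against the rRNA share of raw reads r was 0.93 and rho 0.92. Rn45s counts equalled 12.5% to 48.3% of the number of rRNA reads, so the counts themselves did not keep a fixed proportion. Both measures are shares of ribosomal RNA in the same library and are thus not independent. This relation is given as a description, with no p. The value of r was 0.96 within the ESE group, 0.89 within the ground controls and 0.95 without the 2 libraries farthest from the median.

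No relation of the Rn45s share with RNA integrity passed the threshold over all libraries. The RNA integrity number (RIN), a score of how intact the ribosomal RNA bands are, was low in all libraries, between 1.2 and 2.7. It averaged 1.66 ± 0.291 in the ESE group (SD, n = 10) and 2.05 ± 0.339 in the ground controls (SD, n = 6), a difference of -0.39 (exact permutation p = 0.0262, adjusted p = 0.0787 over RIN, DV200 and rRNA share). The Rn45s share had r = 0.16 and rho = 0.26 with RIN (adjusted permutation p = 0.57 and 0.33). The sign of r was positive within the ESE group (0.29) and negative within the ground controls (-0.24). With DV200, the percentage of RNA in longer fragments, r was -0.39 and rho -0.38 (adjusted permutation p = 0.187 for each). Within the 6 ground controls r was -0.82 (exact p = 0.046) and rho -0.83 (exact p = 0.058), against -0.12 within the ESE group (permutation p = 0.68), and the difference between these groups was not tested. Without the 2 libraries farthest from the median r was 0.19 for RIN and -0.38 for DV200.

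**Figure D2:**
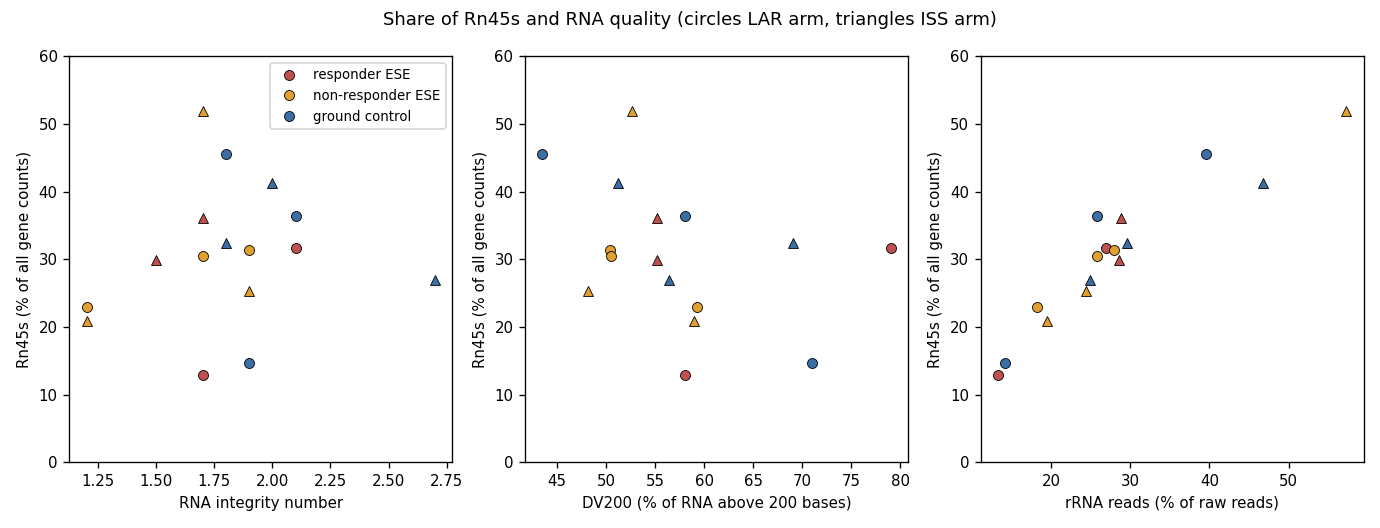
Share of Rn45s in all gene counts (%) against the RNA integrity number, DV200 (%) and the rRNA share of raw reads (%) in 16 libraries, circles for the LAR arm and triangles for the ISS arm. The points rise with the rRNA share (r = 0.93), while r was 0.16 with RIN and -0.39 with DV200.

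Fold changes were estimated for all genes of the table with edgeR's quasi-likelihood test. In the ESE group against the ground controls none of the 5 RNAs passed the adjusted threshold, and of all 13577 genes tested 0% passed it. At an unadjusted p under 0.05 the genes amounted to 7.86% of all genes, and again none of the 5 RNAs was among them. The log2 fold change was -0.41 for Rn45s (SE 0.44, 95% interval -1.33 to 0.51), -0.36 for Malat1 (SE 0.31, interval -1.02 to 0.30), -0.23 for Neat1 (SE 0.24, interval -0.73 to 0.27), -0.00 for Rmrp (SE 0.37, interval -0.78 to 0.78) and 0.14 for Rpph1 (SE 0.22, interval -0.31 to 0.59). The adjusted p of edgeR's quasi-likelihood test was between 0.69 for Malat1 and 0.9997 for Rmrp, and the median over all genes was -0.04. On the linear scale the interval was 0.398 to 1.43 for Rn45s and 0.804 to 1.51 for Rpph1, and fold changes between these bounds were not excluded. By DESeq2 3 genes and by the likelihood ratio test 13 genes passed the adjusted threshold, and none of the 5 RNAs was among them.

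Malat1 was at 49745, 69676, 40547 and 24042 CPM in responder skin. In non-responder skin its lowest level was 29561 CPM, the median 43628 CPM and the highest 49477 CPM, and in ground control skin the lowest was 27699 CPM, the median 48850 CPM and the highest 102882 CPM. The ground control libraries spread most, with a coefficient of variation of 54.6%, against 17.9% in non-responders, and the ranges overlapped. The highest ground controls were replicate 3 (102882 CPM) and replicate 4 (75844 CPM), which were also among the 3 libraries with over 39% rRNA reads. Without these 3 libraries, which also had the 3 highest Rn45s shares, the log2 fold change of Malat1 in the ESE group turned to 0.14 (SE 0.31, adjusted p = 0.846 by edgeR).

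As a share of all counts Malat1 averaged 3.17% ± 0.731 in ESE skin and 3.14% ± 1.08 in ground control skin (SD, n = 10 and 6), whereas as a level without Rn45s it averaged 43568 ± 12502 CPM in ESE skin and 55337 ± 30190 CPM in ground control skin. The sign of the difference thus depended on whether the share or the scaled level was taken, and neither difference exceeded the spread.

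Neat1 was at 2560, 7166, 3704 and 2467 CPM in responder skin. In non-responder skin the lowest level was 2686 CPM, the median 3555 CPM and the highest 4347 CPM, and in ground control skin the lowest was 3515 CPM, the median 3910 CPM and the highest 6059 CPM. Responder replicate 2 was the highest of all 16 libraries and responder replicate 4 the lowest, so the responder cohort alone spanned the whole range. Without responder replicate 2 the log2 fold change of responders against ground controls was -0.58 (adjusted p = 0.695, edgeR), against -0.12 with it. The share of Neat1 in all counts averaged 0.271% ± 0.0801 in ESE skin and 0.263% ± 0.0635 in ground control skin (SD, n = 10 and 6), and its level 3724 ± 1349 CPM in ESE skin and 4302 ± 999 CPM in ground control skin, again with opposite signs.

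Rmrp was at 10795, 24451, 13258 and 7055 CPM in responder skin. In non-responder skin the lowest level was 10625 CPM, the median 15993 CPM and the highest 46748 CPM, and in ground control skin the lowest was 11336 CPM, the median 15615 CPM and the highest 28600 CPM. Non-responder replicate 1, the library with the fewest counts other than Rn45s, stood far above the rest. Without it the log2 fold change of the ESE group against the ground controls was -0.31 (SE 0.28, adjusted p = 0.646 by edgeR), against -0.00 with it.

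Rpph1 was at 4700, 5553, 8256 and 4526 CPM in responder skin. In non-responder skin the lowest level was 3617 CPM, the median 5982 CPM and the highest 10055 CPM, and in ground control skin the lowest was 4731 CPM, the median 5376 CPM and the highest 5755 CPM. In level, the ground controls were the most even group for any of the 5 RNAs, with a coefficient of variation of 6.69%, against 32.2% in the ESE group. The ESE range enclosed the ground control range on both sides. The mean level was 5969 ± 1922 CPM in ESE skin and 5335 ± 357 CPM in ground control skin (SD, n = 10 and 6), and the mean share of all counts was 0.427% ± 0.0711 in ESE skin and 0.331% ± 0.0791 in ground control skin. In share 9 of 10 ESE libraries lay above the ground control median, against 6 of 10 in level. The ranges overlapped for both, and the difference in share was not tested for Rpph1. For the share of Rpph1 the order of the spread was reversed, with a coefficient of variation of 23.9% in the ground controls and 16.7% in the ESE group. Whether the spread differs between the groups was not tested.

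**Figure D3:**
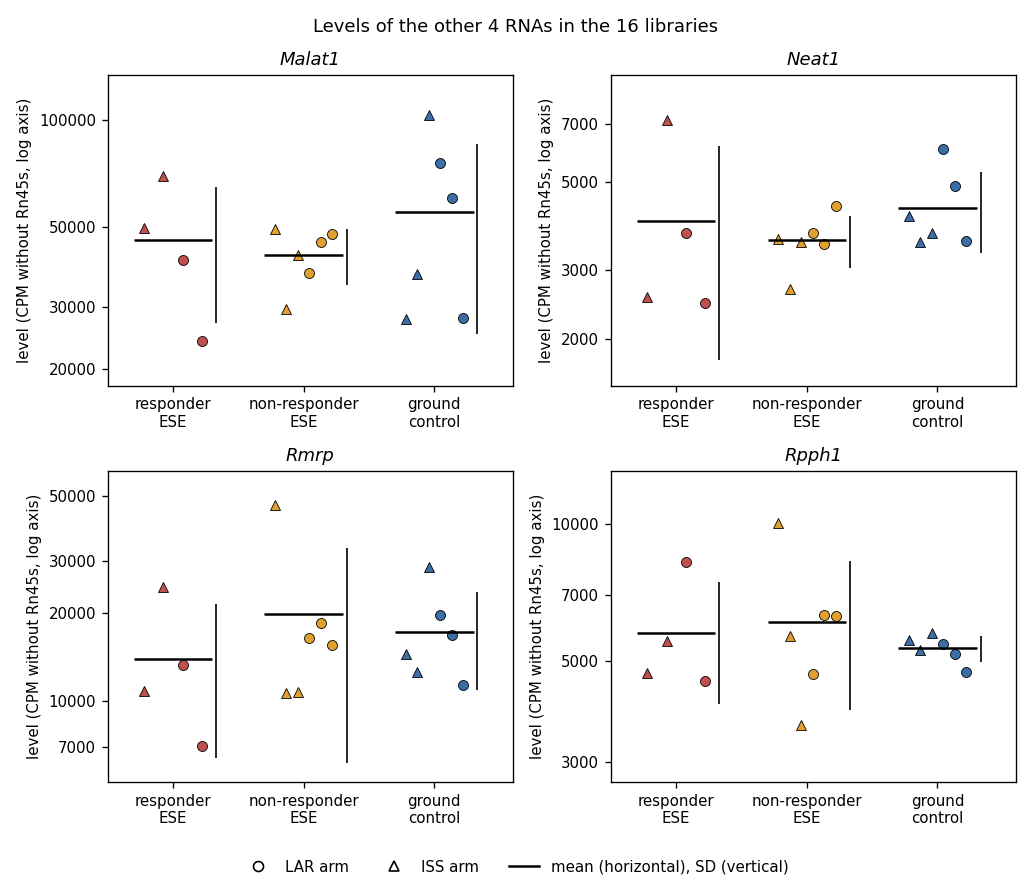
Levels of Malat1, Neat1, Rmrp and Rpph1 (CPM of the counts other than Rn45s, TMM scaled, log axis) in each library by group, circles for the LAR arm and triangles for the ISS arm, the mean as a horizontal line and the SD as a vertical line. All groups overlap for each RNA, and the ground controls of Rpph1 lie closest together, between 4731 and 5755 CPM.

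The cohorts were compared in a fit with 3 groups. Against ground controls, the responder log2 fold changes were -0.57 for Rn45s, -0.27 for Malat1, -0.12 for Neat1, -0.31 for Rmrp and 0.10 for Rpph1, with SE of 0.28 to 0.57. Of all 14107 genes 0.00709% passed the adjusted threshold in this comparison, which was 1 gene, the antisense RNA Tnk2os, and 3.42% had an unadjusted p under 0.05. No gene was called in 14 of the 16 fits that left out 1 library, the exceptions being those without non-responder replicate 3 or 5, nor without the filter on low counts, with arm or RIN as a covariate, or without the 3 libraries of over 39% rRNA reads. The likelihood ratio test called 21 genes and DESeq2 20. The non-responder log2 fold changes were -0.31 for Rn45s, -0.43 for Malat1, -0.31 for Neat1, 0.17 for Rmrp and 0.17 for Rpph1, where 0% of genes passed the adjusted threshold and 6.96% the unadjusted one. These comparisons share the ground controls. Responders against non-responders gave -0.27 for Rn45s, 0.16 for Malat1, 0.19 for Neat1, -0.48 for Rmrp and -0.06 for Rpph1, with 0% of genes past the adjusted threshold and 2.17% past the unadjusted one. None of the 5 RNAs passed either threshold in these comparisons.

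No RNA differed between the arms beyond the spread. In the LAR arm against the ISS arm the log2 fold change was -0.35 for Rn45s (SE 0.43), -0.19 for Malat1 (SE 0.31), 0.05 for Neat1 (SE 0.24), -0.42 for Rmrp (SE 0.35) and -0.02 for Rpph1 (SE 0.21). Of 14381 genes 0% passed the adjusted threshold and 9.94% the unadjusted one, and none of the 5 RNAs passed either. The likelihood ratio test called 99 genes in this comparison and DESeq2 129, and none of the 5 RNAs was among them. For Rmrp the levels were 14820 ± 4123 CPM in the LAR arm and 19875 ± 12836 CPM in the ISS arm (SD, n = 8 each), and without the 3 libraries of over 39% rRNA reads the log2 fold change turned to 0.02. The test of whether the ESE effect differed between LAR and ISS gave log2 differences of -0.69 for Rn45s (SE 0.90), -0.33 for Malat1 (SE 0.66), -0.55 for Neat1 (SE 0.49), -0.40 for Rmrp (SE 0.74) and 0.08 for Rpph1 (SE 0.46). There 0% of genes passed the adjusted threshold and 4.8% the unadjusted one, and again none of the 5 RNAs did.

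With exposure in the model, the slope on RIN was 0.21 per unit for Rn45s (SE 0.89), -0.17 for Malat1 (SE 0.63), 0.16 for Neat1 (SE 0.43), 0.12 for Rmrp (SE 0.71) and 0.34 for Rpph1 (SE 0.36), on the log2 scale. Of all genes 0% passed the adjusted threshold in this fit and 7.5% the unadjusted one, and none of the 5 RNAs passed either. As RIN spanned 1.2 to 2.7, these slopes come from degraded RNA alone.

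**Figure D4:**
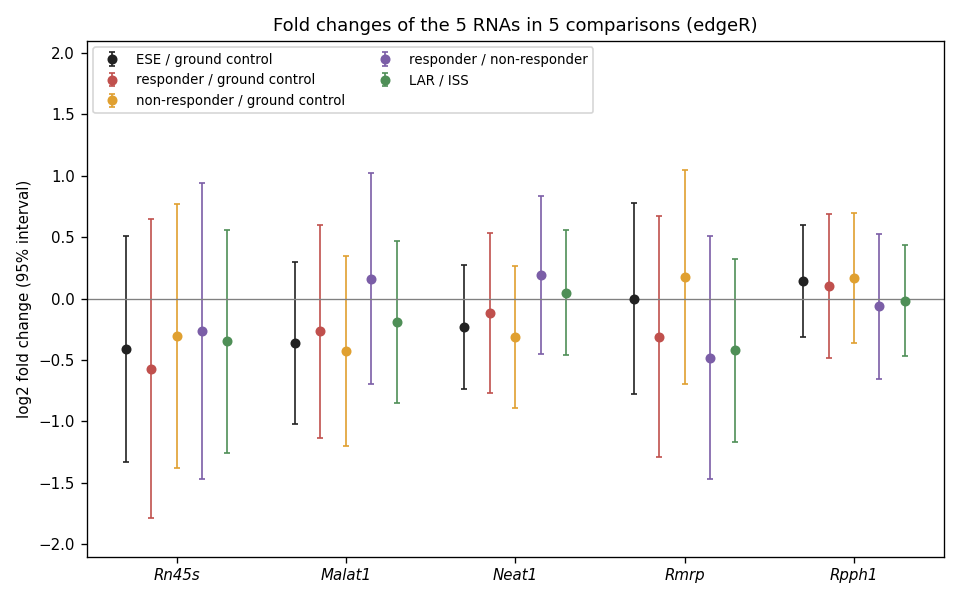
Log2 fold changes with 95% intervals for the 5 RNAs in 5 comparisons, from edgeR's quasi-likelihood fits of all genes. Every interval includes 0, and the narrowest are those of Rpph1, for which the ESE group against the ground controls gave 0.14 (interval -0.31 to 0.59).

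Ratios of levels within a library do not depend on the library total. Malat1 over Neat1, per kb and with Neat1 taken at the length of its long transcript, was 57.82, 28.93, 32.57 and 28.99 in responder skin. In non-responder skin the lowest ratio was 29.8, the median 34.1 and the highest 41.1, and in ground control skin the lowest was 20.1, the median 34.2 and the highest 82.2. The highest ratio was in ground control replicate 3, where the summed level of 6 anagen hair markers was also highest, at 236751 CPM, against at most 116333 CPM in the other libraries. The part of hair growth stage in this ratio was not tested. In ground control replicate 3 the hair follicle gene Tchh took 8.55% of counts.

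Rmrp over Rpph1, per kb, was 2.71, 5.20, 1.90 and 1.84 in responder skin. In non-responder skin the lowest ratio was 2.21, the median 3.48 and the highest 5.49, and in ground control skin the lowest was 2.81, the median 3.44 and the highest 5.87. Rmrp was thus above Rpph1 in each library, with means of 3.34 ± 1.29 in ESE skin and 3.78 ± 1.18 in ground control skin (SD, n = 10 and 6), a difference smaller than the SD of either group. The 2 responder libraries of the LAR arm had the lowest ratios of all 16.

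**Figure D5:**
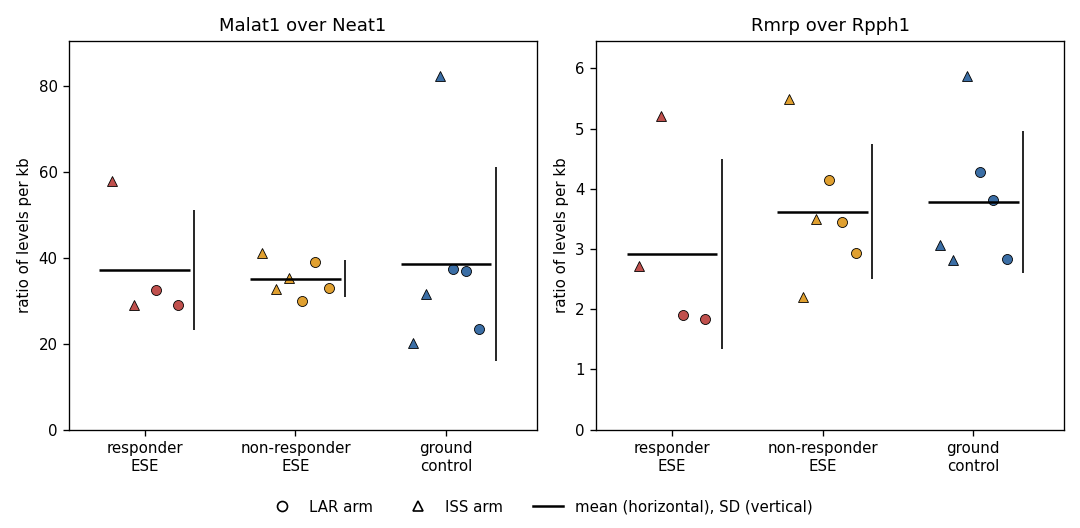
Ratios of levels per kb within each library, Malat1 over Neat1 on the left and Rmrp over Rpph1 on the right, by group, with circles for the LAR arm and triangles for the ISS arm, the mean as a horizontal line and the SD as a vertical line. Most Malat1 to Neat1 ratios lie near the medians of 34.1 in non-responders and 34.2 in ground controls, and ground control replicate 3 stands at 82.2.

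The 5 RNAs moved together across the libraries to unequal degree. Over 16 libraries the Spearman correlation of log2 CPM with Rn45s was 0.86 for Rmrp, 0.86 for Malat1, 0.69 for Rpph1 and 0.57 for Neat1, while Malat1 had 0.49 with Neat1 and 0.42 with Rpph1. Unlike the levels above, the log2 CPM used here was scaled with Rn45s kept in the totals. These libraries share depth and scaling, and the values are descriptions. Among all 13577 genes, those ranked most like Rn45s were Rgs9 (0.92), Tnnt2 (0.92) and Rprl2 (0.92), those most like Malat1 were Ube2e2 (0.93), Luc7l3 (0.92) and Srpk2 (0.92), and those most like Neat1 were Csf1 (0.95), Dopey2 (0.94) and Acsbg1 (0.94). Rmrp was most like Gm8909 (0.90), Sbds (0.89) and Vaultrc5 (0.88), and Rpph1 was most like Trappc6a (0.89), Snora78 (0.85) and Krt16 (0.85). Luc7l3 is a splicing factor, Srpk2 a kinase of splicing factors, Sbds a ribosome maturation factor and Vaultrc5 a vault RNA.

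No gene of the count table overlapped any of the 5 RNAs. The nearest genes to Rmrp and Rpph1 start a short way upstream on the opposite strand, Ccdc107 at 306 bases from Rmrp and Parp2, a DNA repair enzyme, at 175 bases from Rpph1. In the ESE group against the ground controls Ccdc107 had a log2 fold change of -0.62, with SE 0.22 and an adjusted p of 0.624 by edgeR, and Parp2 of 0.21 (SE 0.15, adjusted p = 0.657, edgeR). Frmd8, at 5494 bases from Neat1, had -0.16 (SE 0.26). None of these neighbours passed the adjusted threshold.

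The protein partners were read from lists of genes in the ESE group against the ground controls, where 0 genes of any list passed the adjusted threshold and over all genes the median was -0.04, with 45.3% positive and 7.86% at an unadjusted p under 0.05. Among RNA polymerase I and its factors 10 of 15 genes had a positive log2 fold change and the median was 0.15. Polr1e, a subunit of this polymerase, averaged 19.4 ± 7.29 CPM in ESE skin and 12.9 ± 1.59 CPM in ground control skin, with a log2 fold change of 0.57 (adjusted p = 0.624, edgeR). Among small nucleolar RNP proteins and rRNA processing factors 18 of 21 were positive, with a median of 0.21, and 3 of the 21 had an unadjusted p under 0.05, against 7.86% of all genes. Npm1, a nucleolar chaperone, averaged 45.5 ± 24.1 CPM in ESE skin and 25.9 ± 6.87 CPM in ground control skin (log2 fold change 0.78, adjusted p = 0.624, edgeR), and Nop58, a box C/D protein, averaged 76.6 ± 36.9 CPM in ESE skin and 47.01 ± 9.43 CPM in ground control skin (0.68, adjusted p = 0.624).

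The protein subunits of RNase P and RNase MRP were even, with 5 of 10 positive and a median of -0.01. Rpp21, a subunit of RNase P, had -0.53 (adjusted p = 0.624, edgeR) and Rpp38, a subunit of both enzymes, 0.47 (adjusted p = 0.632). RNA polymerase III and its factors had 14 of 27 positive, with a median of 0.06. Of the paraspeckle proteins, the partners of Neat1, 8 of 9 were positive, with a median of 0.23, while Neat1 itself had -0.23. Nono, a core paraspeckle protein, averaged 68.7 ± 14.2 CPM in ESE skin and 48.9 ± 16.9 CPM in ground control skin (log2 fold change 0.47, adjusted p = 0.624, edgeR), and Dazap1 had 0.32. In the LAR arm against the ISS arm all 9 paraspeckle proteins were negative, with a median of -0.19, where 44.8% of all genes were negative and their median was 0.04, and none of the 9 passed either threshold.

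The nuclear speckle proteins had 6 of 14 positive, with a median of -0.04. Srsf5 and Srsf2, splicing factors of speckles, had -0.27 and -0.40. Of the proteins that bind Rn7sk and the kinase complex it restrains, 4 of 7 were positive, with a median of 0.02, and Larp7, which binds the 3′ end of that RNA, had 0.66 (adjusted p = 0.624, edgeR). Among other long noncoding RNAs 9 of 19 were positive, with a median of -0.08. Gas5, a host of small nucleolar RNAs, averaged 281 ± 111 CPM in ESE skin and 181 ± 47.3 CPM in ground control skin (log2 fold change 0.61, adjusted p = 0.624, edgeR), and Snhg1, another such host, had 0.86 (adjusted p = 0.624). Of the other small structural RNAs 4 were tested, and Terc, the RNA of telomerase, had 0.72 (SE 0.50) and Vaultrc5 -0.31 (SE 0.48).

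Markers of other tissues were high in some libraries. The summed level of the 13 skeletal muscle markers was 15.2 to 6444 CPM in ESE skin and 19.1 to 82127 CPM in ground control skin, and that of 8 liver markers was 1.16 to 3913 CPM in ESE skin, highest in responder replicate 1, and 1.83 to 27.3 CPM in ground control skin. That of 6 keratinocyte markers was 4143 to 24020 CPM in ESE skin and 8746 to 20937 CPM in ground control skin, so the skin label was met in each library. For 5 dermal fibroblast markers it was 183 to 1328 CPM in ESE skin and 256 to 994 CPM in ground control skin. For 4 adipocyte markers it was 14.6 to 2415 CPM in ESE skin, highest in non-responder replicate 4, and 43.2 to 137 CPM in ground control skin. Fewer cells of a type and less RNA per cell cannot be told apart in such bulk samples, and the part of tissue makeup in the values of the 5 RNAs was not tested.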

How the data were processed

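Exon-captured total RNA of 16 skin libraries was sequenced after library preparation with molecular barcodes. The authors mapped the reads to mm10 by STAR, kept high-quality reads with a single mapping place, and deposited raw counts per gene from featureCounts. The strand setting of the counting is not given in the sources used here. Repeated rDNA units make the counts of Rn45s depend on that rule on mapping. The authors also deposited log2 FPKM, fold changes and p-values of their own comparisons, which were not used, the RIN as a score, DV200 as a percent, and mapping statistics in reads and percent per the file headers. Arms were taken from mouse names in the supplementary sample sheet, as the deposited run sheet and the labels do not give them.

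Counts of each library totalled 4159342 to 22593931. Shares are counts over all gene counts. Levels are CPM over the counts other than Rn45s with TMM factors computed without it. Genes passing edgeR's filterByExpr (minimum count 10) were fitted with the whole table by TMM and the robust quasi-likelihood test in edgeR 4.0.16 under R 4.3.3, with Benjamini-Hochberg adjustment over all genes tested and a threshold of 0.05. Fits covered the ESE group against ground controls, the 3 groups, the arms with and without an interaction, and RIN with exposure. Shares were tested by exact permutation in Python 3.11.15, with Wilson intervals from SciPy 1.17.1. The log2 CPM for correlations across genes used a prior count of 2 and totals and TMM factors that included Rn45s. The scripts were tested on simulated data. Alternatives were RLE factors, DESeq2 1.42.0, the likelihood ratio test, no filter, Rn45s left out, arm or RIN as covariates, DV200 in place of RIN, no exposure term, each library left out and the 3 libraries of over 39% rRNA reads left out.

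The genes named are the 5 measured RNAs, those of their nearest genes that are reported here, the 2 genes of each list with the smallest p in the ESE comparison and the 3 genes ranked most like each RNA. Tchh, Ttn and Tnk2os were chosen after their values were seen. The members and lists were chosen with earlier results of these data known. Each library is 1 mouse, and no pair of the 36 pairs of libraries within a group agreed within sampling noise (smallest chi-square per degree of freedom 42.7).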

Additional observations from a re-analysis of the deposited data

Results flagged for a closer look

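Each value of the 5 RNAs and of their ratios was examined by Dixon's criterion for a library far from the others of its group, in 52 groups, of which chance would flag about 1 in 20. The 10 flags came from 4 libraries, and some values were flagged both in a cohort and in the ESE group that holds it. As the groups overlap and the quantities are related, the number of flags cannot be set against that rate. Non-responder replicate 1, with the fewest counts other than Rn45s, had 1154370 CPM of Rn45s, against 477272 CPM in the next non-responder and 578901 CPM in the next ESE library. In the same library the share of Rn45s was 51.9%, against 31.4% in the next non-responder. Rmrp stood at 46748 CPM there, against 18432 CPM in the next non-responder and 24451 CPM in the next ESE library.

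Responder replicate 2 had 7166 CPM of Neat1, against 4347 CPM in the next ESE library, and a Neat1 share of 0.447% of counts, against 0.250% in the next responder. In responder replicate 1 the ratio of Malat1 to Neat1 per kb was 57.8, against 32.6 in the next responder and 41.1 in the next ESE library. Ground control replicate 3 had a ratio of 82.2, against 37.2 in the next ground control. No ESE effect differed between the arms for any of the 5 RNAs by the interaction test.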

How the results depend on the processing

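No paired analysis was possible because the labels give no replicate numbers that link mice of different groups. None of the 5 RNAs passed the adjusted threshold in any of 813 results under alternatives (smallest adjusted p 0.42), and 756 of these kept their direction. The biological coefficient of variation between mice was 0.338 for Rpph1 to 0.582 for Rn45s, which limits the differences that can be seen. The counts of genes called moved with the test. By the likelihood ratio test 13 genes were called in the ESE group against ground controls, 21 in responders against ground controls and 99 in LAR against ISS. By DESeq2 they were 3 in the ESE group, 20 in responders and 4 in non-responders against ground controls, 7 in responders against non-responders and 129 in LAR against ISS. The 1 gene called in responders against ground controls became 0 without the filter, with arm or RIN as a covariate and without the 3 libraries of over 39% rRNA reads. With each library left out in turn that count was 0 to 1, with 0 in 14 of 16 fits, and it was 0 to 6 in LAR against ISS, the 6 without non-responder replicate 2. The cause was not tested for any of these.

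The values whose direction turned were at most 0.43 in size in the fits reported. Without the libraries of over 39% rRNA reads the log2 fold change of Malat1 was 0.14 in the ESE group, 0.24 in responders and 0.052 in non-responders against ground controls, and its RIN slope 0.086. That of Rmrp was 0.016 in the ESE group, those of Rn45s and Rpph1 in responders against non-responders 0.21 and 0.11, and those of Neat1, Rmrp and Rpph1 in LAR against ISS -0.067, 0.022 and 0.17. Rmrp in the ESE group was 0.0057 with RLE factors, 0.0069 by DESeq2, 0.013 with Rn45s left out and 0.043 with RIN as a covariate. Per 10 points of DV200 the slopes were -0.30 for Rn45s, -0.13 for Neat1 and -0.30 for Rmrp, and without the exposure term the RIN slope of Malat1 was 0.20. Within the ground controls r of the Rn45s share was -0.24 with RIN and -0.82 with DV200.

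With single libraries left out, the log2 fold change against ground controls ran over -0.31 to 0.19 for Rmrp in the ESE group, -0.58 to 0.067 for Neat1 and -0.13 to 0.21 for Rpph1 in responders, and -0.30 to 0.37 for Rmrp and -0.047 to 0.32 for Rpph1 in non-responders. In responders against non-responders it ran over -0.54 to 0.24 for Rn45s, -0.12 to 0.35 for Malat1, -0.27 to 0.34 for Neat1 and -0.29 to 0.15 for Rpph1. In LAR against ISS it was -0.31 to 0.028 for Malat1, -0.042 to 0.28 for Neat1 and -0.12 to 0.15 for Rpph1, and the difference of ESE effects between arms was -0.83 to 0.16 for Rmrp and -0.069 to 0.37 for Rpph1. The RIN slopes ran over -0.23 to 0.95 for Rn45s, -0.55 to 0.48 for Malat1, -0.065 to 0.34 for Neat1 and -0.22 to 0.42 for Rmrp. The share of Rn45s differed by -6.71 to 0.11 points between non-responders and ground controls, and by -5.66 to 2.05 points between responders and non-responders. On the log2 scale of the share no test changed its side of the threshold.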
